A study of Homo sapiens with 48 samples.

Results

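The 40 genes described here make, fold, modify or dispose of proteins in the endoplasmic reticulum, or sense the state of that compartment. They were chosen by gene symbol from a list by role, which was drawn up with earlier results of these data known, and no measured value is part of the rule. All 40 were found among the 61815 genes of the count table, and all 40 were among the 20009 genes with enough counts to be tested. By role they were 12 folding chaperones and their partners, 8 genes of disulfide formation, 7 of degradation, 8 of translocation and export, and 5 sensors and transcription factors.

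Secreted and membrane proteins enter the endoplasmic reticulum through a channel, are trimmed and glycosylated, and fold there with the help of chaperones and disulfide isomerases, while proteins that fail to fold are sent back to the cytosol for degradation. When unfolded proteins build up, the sensors IRE1 (gene ERN1), ATF6 and PERK (gene EIF2AK3) start the unfolded protein response. IRE1 splices the messenger RNA of XBP1, ATF6 is cleaved into a transcription factor, and PERK slows translation and favours translation of ATF4. Spliced XBP1 and cleaved ATF6 raise the transcription of chaperone and degradation genes. Prostate luminal cells secrete much protein, and XBP1 and the chaperones are studied there as targets of androgen and of stress.

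RNA was sequenced from 48 cultures of 22Rv1, a castration-resistant human prostate cancer line, and its derivatives, in 16 groups of 3 replicates. The study compared SNX631, an inhibitor of the Mediator kinases CDK8 and CDK19, with vehicle (0.1% DMSO) at 500 nM for 72 h. The parental line Rv1-WT and its derivative Rv1-Luc were kept in medium with either FBS (fetal bovine serum) or CSS, a serum stripped with charcoal to remove androgen. The cells for CSS spent 1 passage in that medium first and were seeded more densely, so that the medium cannot be told apart from the density.

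Rv1-Luc carries firefly luciferase from a lentivirus and is otherwise Rv1-WT by its label. The other derivatives were grown in FBS alone and all come from Rv1-dKO, in which CDK8 and CDK19 were knocked out with CRISPR/Cas9. dKO-19 and dKO-19M had CDK19 returned, as wild type or as the kinase-dead mutant D173A. dKO-8 and dKO-8M had CDK8 returned in the same forms, and came from a knockout line that had first received an insert-free vector. Each derivative is a single line, so its transgene cannot be told apart from other differences of that line, and the labels give no more than replicate numbers, so that p-values measure the spread between these cultures, which may be technical.

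Library totals were 13.2 to 31.5 M counts, and the Rv1-WT libraries were the shallowest, at 13.2 to 18.2 M. Replicate 1 of dKO-19M under vehicle stood apart from its partners (chi-square per degree of freedom 17.7 and 17.1), and the next highest pair was in Rv1-Luc in FBS under vehicle (9.69). All 10 prostate luminal markers were counted in every line, KLK3 being the lowest of them. The summed level of 10 plasma and B cell markers was 4.34 to 32.5 CPM (counts scaled to the library total) in Rv1-Luc (9 of 10 counted, TNFRSF17 lowest) and at most 1.43 CPM elsewhere (4 to 8 of 10 counted, IGKC lowest), and that of 10 stromal and immune markers was 4.14 to 27.2 CPM over all lines. CDK8 stood at 60.5 to 71.5 CPM in dKO-8 and 118 to 134 CPM in dKO-8M against 25.4 to 28.3 CPM in Rv1-WT, and CDK19 at 469 to 519 CPM in dKO-19 and 298 to 360 CPM in dKO-19M against 148 to 281 CPM. CDK8 was still counted at 24.9 to 28.9 CPM in dKO-19, so gene counts checked the RNA of the returned kinases and not the knockout. Protein can differ from RNA. By Western blot the paper reports less CDK8 in dKO-8 than in parental cells, and much more CDK19 in dKO-19 and dKO-19M.

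Promoter sequences are shown because the classical control of these genes is written there. Cleaved ATF6 and spliced XBP1 are known to act on the ER stress response element (ERSE), CCAAT and CCACG separated by 9 bases, and on ERSE-II, in which ATTGG and CCACG are separated by 1 base. RefSeq promoters of GRCh38.p14, from 250 bases before to 50 after the start, were used for 36 of the 40 genes, and those of PDIA3, DERL1, DERL3 and SEC24D were not used here. Searched on both strands, an exact ERSE was present in 8 of 36 (22.2%), against 0.0916% of all 27305 genes with a promoter, and in 5 of the 12 chaperones. The 36 are themselves among the 27305, of which 25 held an exact ERSE. The 40 were chosen as genes of this compartment and its stress response, so the shares describe the list and are no test. ERSE-II was present in 3 of 36 (8.33%, against 0.0696%). The core TGACGTGG of the element that spliced XBP1 is known to bind was present in 3 of 36 (8.33%, against 0.927%), namely HYOU1, where it overlaps an ERSE-II match, TXNDC5 and TXNDC11. These matches are letters in a window and not shown binding sites.

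The exact ERSE and ERSE-II matches are given below in the direction of the motif, with the fixed letters in capitals.
HSPA5: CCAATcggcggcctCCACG
HSP90B1, upstream match: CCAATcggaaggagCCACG
HSP90B1, downstream match: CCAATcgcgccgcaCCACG
CALR: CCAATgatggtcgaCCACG
CANX: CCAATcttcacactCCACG
CRELD2: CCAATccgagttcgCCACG
PDIA6: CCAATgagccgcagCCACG
ERO1B: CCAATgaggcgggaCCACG
XBP1: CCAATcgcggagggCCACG
SDF2L1: ATTGGtCCACG
HERPUD1: ATTGGgCCACG
HYOU1, both matches: ATTGGaCCACG

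The stretches just upstream of 4 starts are shown for the genes that the results turn on, on the strand of the gene and with exact ERSE letters in capitals. HSPA5 (chr9:125241344-125241493, minus strand) and HSP90B1 (chr12:103930210-103930409, plus strand) hold the element, and HSP90B1 holds it again on the opposite strand. PDIA4 (chr7:149028491-149028640, minus strand) and ERN1 (chr17:64130145-64130294, minus strand) hold no exact match in these windows. With CSS in Rv1-WT under vehicle, PDIA4 fell as HSPA5 and HSP90B1 did, and ERN1 rose.
HSPA5: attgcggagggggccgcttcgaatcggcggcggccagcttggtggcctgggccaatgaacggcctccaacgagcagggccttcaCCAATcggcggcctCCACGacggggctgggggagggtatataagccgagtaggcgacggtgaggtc
HSP90B1: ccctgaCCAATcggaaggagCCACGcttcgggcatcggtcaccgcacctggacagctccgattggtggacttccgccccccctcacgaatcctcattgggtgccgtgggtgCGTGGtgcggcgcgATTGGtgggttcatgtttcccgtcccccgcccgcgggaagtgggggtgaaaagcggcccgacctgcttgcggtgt
PDIA4: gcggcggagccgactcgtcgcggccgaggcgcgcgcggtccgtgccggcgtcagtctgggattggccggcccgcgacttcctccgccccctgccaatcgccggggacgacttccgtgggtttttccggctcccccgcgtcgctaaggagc
ERN1: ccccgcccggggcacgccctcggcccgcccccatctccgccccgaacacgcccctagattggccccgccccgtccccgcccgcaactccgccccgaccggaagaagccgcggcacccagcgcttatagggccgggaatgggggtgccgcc

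The order of levels in Rv1-WT in FBS under vehicle was taken per kilobase of exon, so that genes could be compared. HSP90B1 (GRP94, the HSP90 of this compartment) was highest at 772 ± 13.7 CPM per kb (SD, n = 3), followed by the lectin chaperone CALR at 636 ± 8.93 and the prolyl isomerase PPIB at 411 ± 1.06. The lectin chaperone CANX, at 249 ± 4.78, and HSPA5 (BiP, the HSP70 of this compartment), at 236 ± 6.31, lay close together. The sensors were at the other end, with EIF2AK3 at 5.52 ± 0.400 and ERN1, the lowest of the 40, at 2.46 ± 0.0836. The transcription factor XBP1, at 109 ± 6.09, was the exception among them.

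Below, a gene is called when edgeR's quasi-likelihood F-test gave a false discovery rate (FDR) under 0.01, adjusted over all 20009 genes, together with a fold change over 1.5. A wider count uses FDR under 0.05 with no fold limit. Where no share of all genes at that wider limit is given for a comparison, its wider counts have no background to be set against. Levels are CPM after TMM scaling (trimmed mean of M values), each group holds 3 libraries, and a fitted log2 change is followed by its standard error. In bulk RNA, fewer cells with a transcript and less transcript per cell cannot be told apart. SNX631 called 7 of the 40 in at least 1 of 8 line and medium settings, CSS called 16 in at least 1 of 4 settings, and 22 were called in none of these. The matching shares of all genes over several settings are not given, so these totals only tally the 40. Shares for single comparisons are given below.

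**Figure D1:**
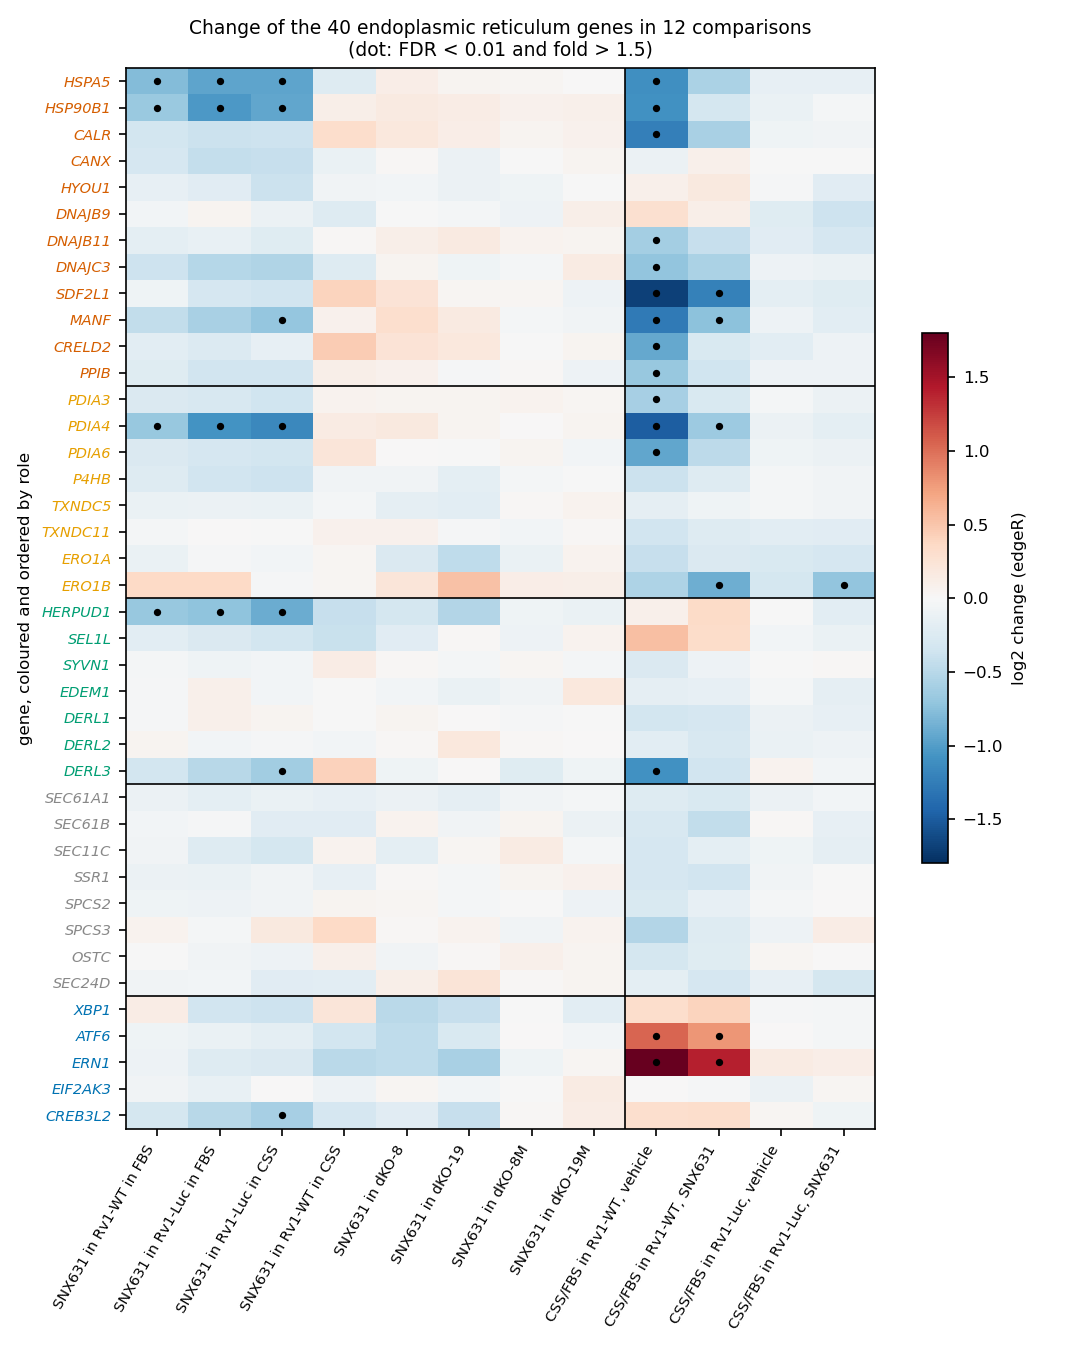
Fitted log2 change of the 40 genes (rows, coloured and ordered by role) in the 8 SNX631 comparisons and the 4 comparisons of CSS with FBS (columns, divided by the black line), each of 3 against 3 libraries; blue is lower and red higher, and a dot marks a gene called at FDR under 0.01 and fold over 1.5. Of the 13 genes called lower by CSS in Rv1-WT under vehicle, 9 are in the chaperone rows, 3 in the disulfide rows and 1 in the degradation rows, and dKO-8M and dKO-19M show no dot.

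SNX631 lowered the central chaperones in Rv1-WT in FBS. EdgeR called 4 of the 40 genes, all lower, against 0.645% of all genes tested that were called lower. At FDR under 0.05, 19 were lower, against 6.79% of all genes, and 2 were higher. The median log2 change was -0.11 over the 40 and 0.00 over all genes. By role the medians were -0.26 for chaperones, -0.18 for disulfide formation, -0.03 for degradation, -0.06 for translocation and -0.08 for sensors.

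HSPA5, the master chaperone that also holds the sensors inactive, stood at 932, 940 and 894 CPM under vehicle and at 553, 541 and 523 CPM under SNX631. The 2 groups did not overlap and HSPA5 fell 1.71-fold (log2 -0.77 ± 0.0508, edgeR FDR 5.5e-18). HSP90B1, which folds a set of secreted and surface proteins, stood at 2238, 2235 and 2168 CPM under vehicle and at 1384, 1441 and 1360 CPM under SNX631. Each treated library again lay below every control, and HSP90B1 fell 1.59-fold (log2 -0.67 ± 0.0408, edgeR FDR 9.2e-20). The same was seen for PDIA4, a disulfide isomerase that binds HSPA5, at 504, 499.9 and 483 CPM under vehicle and 299, 315 and 311 CPM under SNX631. PDIA4 fell 1.61-fold (log2 -0.69 ± 0.0495, edgeR FDR 6.2e-17).

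HERPUD1, a membrane scaffold of the degradation complex, was the only degradation gene of the 7 to be called in Rv1-WT in FBS. It stood at 183, 189.5 and 189 CPM under vehicle and at 118, 114 and 118 CPM under SNX631. All treated HERPUD1 libraries were below all controls, a 1.602-fold fall (log2 -0.68 ± 0.0489, edgeR FDR 5.2e-17). Counts of HERPUD1 were fractional, from reads shared with other genes, in 52.1% of libraries and those of HSP90B1 in 50% of libraries. HSPA5 and PDIA4 had whole counts throughout. Fractions can add up to a whole count, so reads may be shared in more libraries than these.

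Smaller falls in Rv1-WT in FBS passed FDR 0.05 and stayed short of the fold limit. Of the folding genes, SDF2L1, CRELD2, DNAJB9, TXNDC11 and ERO1A did not pass. Among chaperones they were MANF, a secreted partner of HSPA5 (log2 -0.45), DNAJC3, a cochaperone of HSPA5 (-0.38), CALR (-0.34), CANX (-0.30), PPIB (-0.21), DNAJB11, another cochaperone (-0.17), and HYOU1, the nucleotide exchange factor of HSPA5 (-0.15). Among isomerases they were PDIA6 (-0.26), PDIA3, which works with CALR and CANX (-0.26), P4HB, the founding isomerase (-0.23), and TXNDC5 (-0.13). DERL3 (-0.33) and SEL1L (-0.19), both of the degradation channel complex, the stress sensor of the CREB3 family CREB3L2 (-0.32) and the channel subunit SEC61A1 (-0.10) also fell. ERO1B, an oxidase that recharges the isomerases, and XBP1 rose, by log2 0.35 and 0.13.

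**Figure D2:**
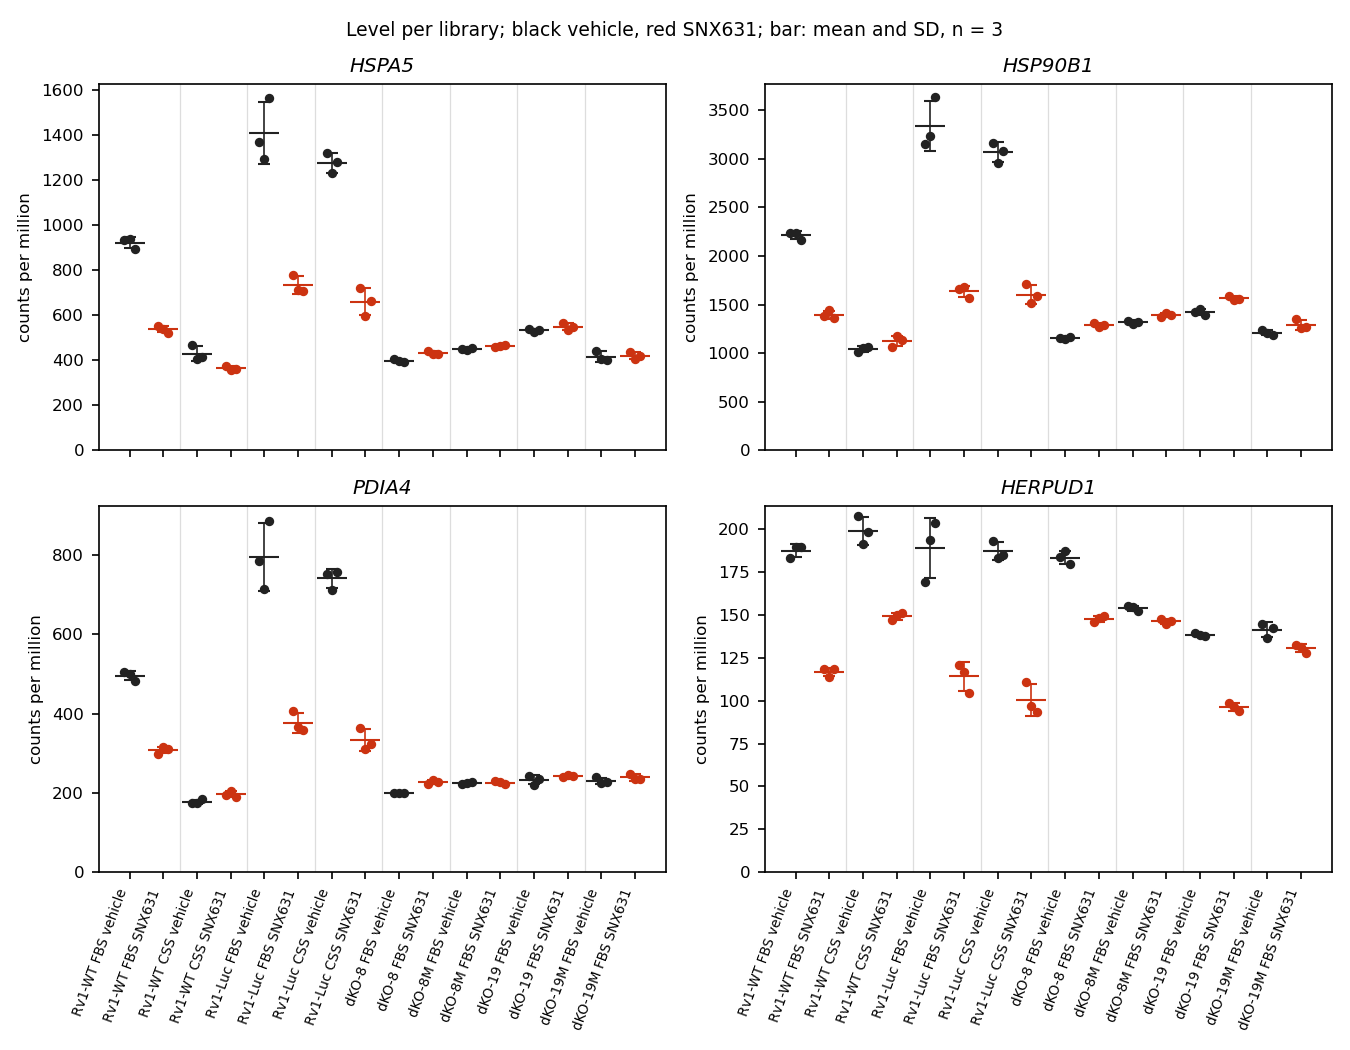
Level in every library (points; CPM on a linear axis from 0) of HSPA5, HSP90B1, PDIA4 and HERPUD1 in the 16 groups, vehicle in black and SNX631 in red, with the mean and SD of 3 libraries. In Rv1-WT in FBS and in Rv1-Luc in both media the red points lie below all black points of the same line and medium, while HSPA5 in dKO-8, dKO-8M, dKO-19 and dKO-19M lies at 392 to 564 CPM with either treatment.

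Rv1-Luc showed the same 4 genes in FBS. EdgeR called 4 of 40 (all lower, against 1.34% of all genes called lower), and at FDR under 0.05 it found 24 lower (against 9.45% of all genes) and 1 higher, with a median of -0.21. HSPA5 stood at 1371, 1293 and 1564 CPM under vehicle and at 779.5, 712 and 708 CPM under SNX631, HSP90B1 at 3150, 3229 and 3631 against 1656, 1682 and 1571 CPM. PDIA4 stood at 784, 714 and 886 against 405.5, 366.5 and 359 CPM, and HERPUD1 at 169, 193 and 204 against 121, 116.5 and 105 CPM. None of these groups overlapped. The log2 changes were -0.94 ± 0.0502 for HSPA5 (edgeR FDR 3.1e-22), -1.03 ± 0.0408 for HSP90B1 (1.0e-28), -1.08 ± 0.0485 for PDIA4 (4.3e-26) and -0.73 ± 0.0470 for HERPUD1 (2.8e-19). MANF lay at the fold limit and was not called, at log2 -0.58 ± 0.0603 (edgeR FDR 1.1e-10).

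In CSS, Rv1-Luc had 7 of 40 called (all lower, against 1.61% of all genes called lower), and 26 were lower at FDR under 0.05 (against 11.8%), with 1 higher and a median of -0.24. HSPA5 stood at 1320, 1231 and 1279 CPM under vehicle and at 722, 598 and 662 CPM under SNX631, a log2 change of -0.95 ± 0.0504 (edgeR FDR 3.7e-22). HSP90B1 stood at 3162, 2956 and 3078 against 1707, 1514 and 1585 CPM (-0.94 ± 0.0408), PDIA4 at 752, 712 and 757 against 363.5, 311 and 323 CPM (-1.16 ± 0.0489), and HERPUD1 at 193, 183 and 185 against 111, 97.0 and 93.3 CPM (-0.90 ± 0.0478). The treated libraries lay below the controls for each of these genes.

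Further genes called in that setting were MANF, DERL3 and CREB3L2. MANF stood at 248, 228 and 238 CPM under vehicle and at 162, 137 and 143 CPM under SNX631 (log2 -0.69 ± 0.0611, edgeR FDR 1.2e-12). DERL3 stood at 99.2, 100.5 and 106 against 69.3, 69.9 and 59.0 CPM (-0.63 ± 0.0629, edgeR FDR 5.4e-12), and CREB3L2 at 65.7, 64.7 and 65.3 against 44.7, 44.98 and 39.3 CPM (-0.60 ± 0.0856, edgeR FDR 5.9e-07). The groups parted in each case, but without replicate 3 under SNX631 the changes of DERL3 and CREB3L2 were -0.55 and -0.54, short of the fold limit.

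The response of Rv1-Luc and Rv1-WT in FBS was compared directly. EdgeR called 0 of 40 for the difference (6 at unadjusted p under 0.05 and 0 called by DESeq2, against 0.175% of all genes called). At FDR under 0.05 HSP90B1 (log2 difference -0.36), PDIA4 (-0.39) and XBP1 (-0.48) were lower in Rv1-Luc. XBP1 rose in Rv1-WT and fell in Rv1-Luc. In Rv1-Luc the response in CSS minus that in FBS also gave 0 of 40 called, with 4 at unadjusted p under 0.05, 0 called by DESeq2 and 0.08% of all genes called.

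Rv1-WT in CSS differed. EdgeR called 0 of 40 genes for SNX631 there (24 at unadjusted p under 0.05 and 0 called by DESeq2, against 4.23% of all genes called). At FDR under 0.05, 10 were higher (against 14.2% of all genes) and 13 lower (against 12.2%), with a median of 0.01. HSPA5 stood at 466, 406 and 416 CPM under vehicle and at 374, 357 and 363 CPM under SNX631. The groups parted by a smaller step than in FBS, log2 -0.23 ± 0.0514 (edgeR FDR 0.00032). HSP90B1 (log2 0.11), PDIA4 (0.14), PDIA6 (0.21), CALR (0.32), SDF2L1, a partner of HSPA5 (0.40), DERL3 (0.42) and CRELD2, a stress-induced isomerase-like protein (0.46), rose instead.

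The test of that difference between media in Rv1-WT called 5 of 40 genes, all in the direction of a higher value in CSS, against 0.245% of all genes. They were HSP90B1 (log2 difference 0.77 ± 0.0577, edgeR FDR 8.3e-15), PDIA4 (0.83 ± 0.0713), CALR (0.65 ± 0.0623), DERL3 (0.74 ± 0.125) and CRELD2 (0.65 ± 0.134, edgeR FDR 0.0037). HSPA5 had a difference of 0.54 ± 0.0721, short of the fold limit. Start levels differed between the media too. Under vehicle HSPA5 was 922 ± 24.7 CPM in FBS and 429 ± 32.5 in CSS, and PDIA4 was 496 ± 11.4 and 178 ± 5.37 (SD, n = 3). The part of the start level in the response was not tested. In CSS, Rv1-Luc minus Rv1-WT called 8 of 40, all lower, against 0.84% of all genes. This comparison was added with the data in view. The largest of them were PDIA4 (-1.30 ± 0.0707), HSP90B1 (-1.04 ± 0.0576), DERL3 (-1.04 ± 0.112), MANF (-0.77 ± 0.0923), SDF2L1 (-0.74 ± 0.142) and HSPA5 (-0.72 ± 0.0717), and CALR (-0.69 ± 0.0621) and CRELD2 (-0.61 ± 0.130) completed the 8. These comparisons share libraries with the single comparisons above.

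In the lines with 1 returned active kinase, no chaperone was called with SNX631. EdgeR called 0 of 40 in dKO-8 (18 at unadjusted p under 0.05 and 0 called by DESeq2, against 1.71% of all genes called) and 0 of 40 in dKO-19 (17 and 0, against 3.41%). At FDR under 0.05, dKO-8 had 4 higher (against 6.13%) and 8 lower (against 7.39%), and dKO-19 had 6 higher (against 9.31%) and 10 lower (against 11.3%). HSPA5 stood at 404, 398 and 392 CPM under vehicle and at 442, 427.5 and 430 CPM under SNX631 in dKO-8, and at 539.5, 526 and 534 against 564, 534 and 549.5 CPM in dKO-19. The log2 changes of HSPA5, 0.12 ± 0.0508 and 0.04 ± 0.0505, did not pass (edgeR FDR 0.11 and 0.63), and the groups overlapped in dKO-19. HSP90B1 rose in both lines (log2 0.16 ± 0.0406 and 0.14 ± 0.0406, edgeR FDR 0.0034 and 0.011), as did CALR (0.19 and 0.12).

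Comparisons with Rv1-WT in FBS, added with the data in view, tested the difference itself. The SNX631 response of dKO-8 minus that of Rv1-WT called 4 of 40 higher (against 0.25% of all genes) and 1 lower (against 1.17%). HSPA5 (log2 difference 0.90 ± 0.0718), PDIA4 (0.87 ± 0.0703), HSP90B1 (0.83 ± 0.0576) and MANF (0.75 ± 0.0930) were the higher ones and XBP1 (-0.62 ± 0.0540) the lower. For dKO-19 the genes called higher were also 4 (against 0.495% of all genes), HSPA5 at 0.82 ± 0.0716, HSP90B1 at 0.80 ± 0.0575, PDIA4 at 0.74 ± 0.0702 and MANF at 0.61 ± 0.0916. The start levels also differed, since HSPA5 under vehicle was 922 ± 24.7 CPM in Rv1-WT, 398 ± 5.98 in dKO-8 and 533 ± 6.55 in dKO-19 (SD, n = 3). The part of the start level in the response was not tested.

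With kinase-dead CDK8 or CDK19 little moved. EdgeR called 0 of 40 in dKO-8M (2 at unadjusted p under 0.05 and 0 called by DESeq2, against 0.015% of all genes called) and 0 of 40 in dKO-19M (8 and 0, against 0.09%). HSPA5 stood at 452, 448 and 455 CPM under vehicle and at 457, 465 and 466 CPM under SNX631 in dKO-8M, and at 443, 405 and 402 against 436, 406 and 418 CPM in dKO-19M. In dKO-19M 1 gene of the 40 passed FDR 0.05 (against 2.41% of all genes in either direction), XBP1, which fell by log2 0.18 on the fitted scale. Replicate 1 of dKO-19M under vehicle, the library that stood apart, held the highest XBP1 level of its group (128 against 119 and 115 CPM). The change without it is not given.

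The sensors and their factors are given in every library. XBP1 in Rv1-WT stood at 221, 210 and 234.5 CPM in FBS under vehicle and at 242, 242 and 245 CPM under SNX631, and at 269, 273 and 286 against 313, 321 and 324.5 CPM in CSS. Treated XBP1 libraries were above the controls in both media (log2 0.13 ± 0.0381 and 0.21 ± 0.0372, edgeR FDR 0.012 and 9.4e-06). In Rv1-Luc they were below, at 163.5, 172 and 178 against 136, 134.5 and 132 CPM in FBS (-0.35 ± 0.0381, edgeR FDR 8.0e-11) and 172.5, 168 and 166 against 134, 127 and 132 CPM in CSS (-0.37 ± 0.0385, edgeR FDR 2.0e-11).

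In the active kinase lines XBP1 fell as well, from 190, 185 and 180 to 132.5, 132 and 131 CPM in dKO-8 (-0.49 ± 0.0383, edgeR FDR 2.3e-15) and from 158, 153 and 155 to 117, 115 and 117 CPM in dKO-19 (-0.42 ± 0.0390, edgeR FDR 5.3e-13). In dKO-8M it stood at 113, 112 and 112 CPM under vehicle and 111, 115 and 111 CPM under SNX631, so that the groups overlapped. In dKO-19M XBP1 went from 128, 119 and 115 to 109, 103 and 107 CPM, without overlap. These counts are of the whole gene and do not separate spliced from unspliced XBP1.

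ERN1, the kinase and nuclease that splices XBP1, stood at 25.0, 23.4 and 24.0 CPM in Rv1-WT in FBS under vehicle and at 24.7, 20.2 and 22.8 CPM under SNX631, overlapping. In CSS it fell from 89.1, 84.2 and 76.9 to 60.8, 55.3 and 62.4 CPM (log2 -0.49 ± 0.0695, edgeR FDR 1.1e-07). It also fell from 29.4, 32.5 and 31.7 to 24.4, 21.3 and 22.2 CPM in dKO-8 (-0.46 ± 0.0795, edgeR FDR 1.5e-05) and from 17.95, 20.1 and 17.7 to 12.8, 12.8 and 11.6 CPM in dKO-19 (-0.58 ± 0.0939, edgeR FDR 2.1e-06). In the kinase-dead lines ERN1 overlapped, at 20.4, 21.5 and 21.1 against 19.4, 19.8 and 20.5 CPM in dKO-8M and 14.7, 15.2 and 16.3 against 15.5, 16.3 and 15.4 CPM in dKO-19M. In Rv1-Luc ERN1 stood at 12.4, 16.4 and 12.4 against 13.4, 11.3 and 10.7 CPM in FBS and 14.35, 17.5 and 13.96 against 11.1, 13.7 and 13.4 CPM in CSS, where all treated libraries lay below the controls (log2 -0.26).

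ATF6, the sensor that is cleaved into a factor, stood at 101.5, 108 and 103 CPM in Rv1-WT in FBS under vehicle and at 104, 98.3 and 93.9 CPM under SNX631, overlapping. It fell in CSS from 218, 212 and 213 to 172, 162 and 178 CPM (log2 -0.33 ± 0.0423, edgeR FDR 8.6e-09), in dKO-8 from 122, 126 and 124 to 90.5, 91.2 and 90.3 CPM (-0.45 ± 0.0438) and in dKO-19 from 190.0, 196 and 186.5 to 160.0, 158 and 155 CPM (-0.27 ± 0.0421). The dKO-8M libraries of ATF6, 86.8, 79.6 and 80.9 against 82.9, 81.7 and 84.5 CPM, and those of dKO-19M, 84.4, 99.8 and 91.0 against 86.8, 87.7 and 92.1 CPM, overlapped. In Rv1-Luc ATF6 was 73.8, 80.9 and 75.8 against 69.2, 71.1 and 71.2 CPM in FBS and 76.5, 79.3 and 76.4 against 69.3, 67.4 and 68.97 CPM in CSS, below the controls in both (-0.12 and -0.17).

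EIF2AK3, the PERK kinase, was the steadiest of the sensors. Its group means lay between 20.6 and 26.8 CPM in all 16 groups, and in none of the 8 SNX631 comparisons or the 4 of CSS with FBS did it reach FDR 0.05. In Rv1-WT in FBS it stood at 26.7, 28.6 and 24.7 CPM under vehicle and at 24.8, 26.8 and 25.0 CPM under SNX631, and in CSS at 27.01, 26.8 and 26.5 against 26.5, 23.6 and 25.2 CPM. The largest fitted SNX631 change of EIF2AK3 was log2 0.15 in dKO-19M (edgeR FDR 0.25).

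**Figure D3:**
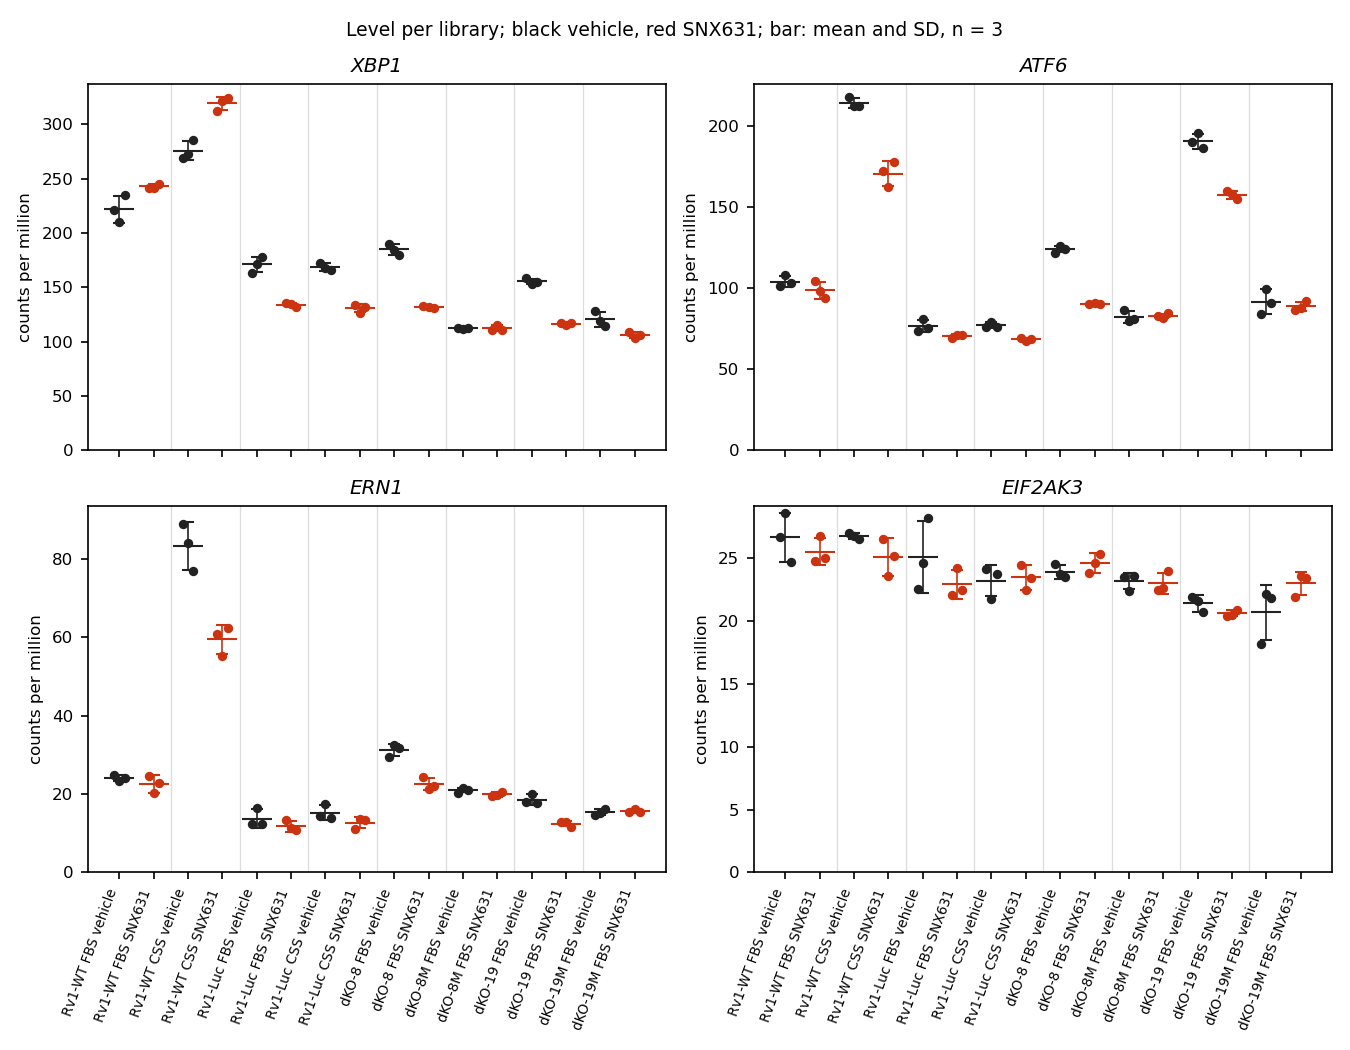
Level in every library (points; CPM on a linear axis from 0) of XBP1, ATF6, ERN1 and EIF2AK3 in the 16 groups, vehicle in black and SNX631 in red, with the mean and SD of 3 libraries. ATF6 and ERN1 are highest in Rv1-WT in CSS (vehicle means 214 and 83.4 CPM), and the group means of EIF2AK3 lie between 20.6 and 26.8 CPM.

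Active and kinase-dead forms were set against each other in the same model. The SNX631 response of dKO-8 minus that of dKO-8M gave 0 of 40 called (9 at unadjusted p under 0.05 and 0 called by DESeq2, against 0.905% of all genes called), with 6 lower at FDR under 0.05 (against 3.61%) and 1, MANF, higher. The 6 were XBP1 (log2 difference -0.49), ATF6 (-0.46), ERN1 (-0.39), SEC11C, a subunit of the signal peptidase (-0.31), HERPUD1 (-0.24) and TXNDC5 (-0.17). For CDK19 the difference called 1 of 40 (lower, against 0.84% of all genes called lower), ERN1 (-0.61 ± 0.131, edgeR FDR 0.00065). Without replicate 1 of dKO-19M under vehicle, the library that stood apart, the difference of ERN1 was -0.58, short of the fold limit. With all libraries, 10 were lower at FDR under 0.05 (against 5.94%), ERN1 among them. The other 9 were CREB3L2 (-0.55), ERO1A, an oxidase of the isomerases (-0.52), HERPUD1 (-0.41), EDEM1, a mannosidase-like protein of degradation (-0.31), TXNDC5 (-0.26), XBP1 (-0.23), ATF6 (-0.23), P4HB (-0.18) and CANX (-0.16). The library that stood apart was the lowest of its group for CREB3L2, ERO1A, EDEM1, ATF6 and CANX. It was the highest for HERPUD1, TXNDC5, XBP1 and P4HB. The differences of these 9 genes without that library are not given. The responses of dKO-19 and dKO-8 were not separated, with 0 of 40 called (8 at unadjusted p under 0.05 and 0 called by DESeq2, against 0.885% of all genes called).

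Under vehicle alone, dKO-8M differed from dKO-8 in 4 of 40 called genes, all lower, against 4.07% of all genes. They were XBP1 (log2 -0.72 ± 0.0386, edgeR FDR 6.3e-23), ATF6 (-0.59 ± 0.0441), ERO1A (-0.65 ± 0.0673) and SEC24D, a coat protein of export vesicles (-0.63 ± 0.0702). At FDR under 0.05, 6 chaperones were higher in dKO-8M, from PPIB (0.17) and HSPA5 (0.18) to MANF (0.40). dKO-19M differed from dKO-19 in 2 called genes, both lower (against 3.87% of all genes), ATF6 (-1.06 ± 0.0430, edgeR FDR 9.7e-29) and ERO1A (-0.65 ± 0.0673). There 6 chaperones were lower at FDR under 0.05, HSPA5 by -0.36. The shares of all genes at FDR under 0.05 are not given for these comparisons, so the chaperone counts have no background beside them.

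Of the 7 degradation genes, HERPUD1 and DERL3 were the ones called with SNX631. By the wider count, Rv1-WT in CSS had 2 degradation genes higher and 2 lower and 1 translocation gene higher and 4 lower, and Rv1-Luc in CSS had 3 degradation genes lower and 1 translocation gene higher and 4 lower. HERPUD1 also fell in Rv1-WT in CSS (log2 -0.41 ± 0.0474), dKO-8 (-0.31 ± 0.0467) and dKO-19 (-0.52 ± 0.0486), settings in which HSPA5 was not called. SYVN1, the ubiquitin ligase of this pathway, DERL1 and DERL2, channel components, and EDEM1 passed FDR 0.05 only as SYVN1 in Rv1-WT in CSS (0.13) and DERL2 in dKO-19 (0.19). Of the translocation genes, SEC61B (channel), SSR1 (translocon partner), SPCS2, SPCS3 and SEC11C (signal peptidase), OSTC (glycan transfer) and SEC24D, none was called in any SNX631 comparison. Their extremes among changes past FDR 0.05 were SPCS3 at 0.36 in Rv1-WT in CSS and SEC11C at -0.32 in Rv1-Luc in CSS. ERO1B rose in dKO-19 (0.53 ± 0.103, edgeR FDR 5.9e-05) and in Rv1-Luc in FBS (0.36). DNAJB9, another cochaperone of HSPA5, fell by 0.23 on the log2 scale in Rv1-WT in CSS and TXNDC11, an isomerase-like partner of degradation, passed FDR 0.05 in no SNX631 comparison.

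In Rv1-WT, 12 of the 20 chaperone and disulfide genes were lower in CSS than in FBS past the fold limit, and 2 sensors were higher past it. The cells in CSS were also seeded more densely, so that here and below the medium cannot be told apart from the density. Under vehicle, edgeR called 2 of 40 higher (against 6.09% of all genes called higher) and 13 lower (against 4.78% called lower), and the median was -0.31 over the 40 and 0.01 over all genes. The 13 held 9 of 12 chaperones, 3 of 8 disulfide genes and 1 of 7 degradation genes, and the medians were -0.82, -0.48 and -0.19. Translocation genes had a median of -0.29, with 7 of 8 lower at FDR under 0.05 and no call. Of the 5 sensors and factors, 4 were higher at FDR under 0.05 (median 0.31) and EIF2AK3 was not, and the 2 genes called higher were among the 4. The shares of all genes at FDR under 0.05 are not given here, so the counts at that limit have no background.

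CALR stood at 1230, 1196 and 1209 CPM in FBS and at 482, 520 and 540 CPM in CSS, a 2.36-fold fall (log2 -1.24 ± 0.0446, edgeR FDR 4.2e-31). HSP90B1 went from 2238, 2235 and 2168 to 1009, 1058 and 1067 CPM (-1.08 ± 0.0411) and HSPA5 from 932, 940 and 894 to 466, 406 and 416 CPM (-1.10 ± 0.0512). The groups were far apart in all of them. The other chaperones called were SDF2L1 (-1.68 ± 0.105), MANF (-1.27 ± 0.0666), CRELD2 (-0.92 ± 0.0955), DNAJC3 (-0.71 ± 0.0547), PPIB (-0.68 ± 0.0459) and DNAJB11 (-0.61 ± 0.0560). CANX and HYOU1 were not called (-0.10 for CANX), and DNAJB9 rose by 0.29.

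PDIA4 had the lowest FDR of the 40, going from 504, 499.9 and 483 to 174, 176 and 184 CPM, a 2.79-fold fall (log2 -1.48 ± 0.0509, edgeR FDR 5.2e-32). PDIA6 went from 344, 349.6 and 355 to 172, 181 and 196 CPM (-0.93 ± 0.0449) and PDIA3 from 590.4, 593 and 595 to 385, 392 and 403 CPM (-0.59 ± 0.0364). Counts were fractional in 70.8% of libraries for PDIA6 and 58.3% for PDIA3. DERL3, the derlin of secretory cells, went from 33.0, 30.9 and 29.2 to 13.01, 14.5 and 16.1 CPM (-1.09 ± 0.0887, edgeR FDR 5.7e-16). Among the other degradation genes SEL1L rose (0.54 ± 0.0621), while DERL1 (-0.33), SYVN1 (-0.26), DERL2 (-0.19) and EDEM1 (-0.16) fell short of the fold limit.

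ERN1 and ATF6 moved the other way. ERN1 went from 25.0, 23.4 and 24.0 to 89.1, 84.2 and 76.9 CPM, a 3.45-fold rise (log2 1.79 ± 0.0781, edgeR FDR 2.9e-27), and ATF6 from 101.5, 108 and 103 to 218, 212 and 213 CPM, a 2.06-fold rise (1.04 ± 0.0441, edgeR FDR 7.4e-28). XBP1 (0.31) and CREB3L2 (0.30) rose within the fold limit. Among the 11 genes with an exact ERSE or ERSE-II, 6 were called lower with a median of -0.92, and among the 25 with a promoter and neither motif, 5 were called lower and 2 higher with a median of -0.29. XBP1 belongs to the first set and rose, and PDIA4, the most clearly lowered gene, belongs to the second. The chaperones MANF, DNAJC3, PPIB and DNAJB11 hold neither motif and were called lower, while CANX and HYOU1 hold one and were not called. The sets also differ in role, with an exact ERSE in 5 of 12 chaperones and in 0 of 7 translocation genes with a promoter. The part of the motif, apart from role, was not tested.

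Under SNX631, the effect of CSS in Rv1-WT had fewer calls. EdgeR called 2 of 40 higher (against 4.86%), ATF6 (log2 0.79 ± 0.0445) and ERN1 (1.39 ± 0.0802), and 4 lower (against 2.97%). SDF2L1 went from 40.5, 35.5 and 42.0 to 17.4, 19.3 and 14.5 CPM (-1.21 ± 0.100) and MANF from 126, 128 and 126 to 73.1, 76.1 and 77.4 CPM (-0.74 ± 0.0670). PDIA4 went from 299, 315 and 311 to 194, 205 and 190.5 CPM (-0.65 ± 0.0506), and ERO1B from 25.5, 20.7 and 25.1 to 12.1, 13.4 and 13.3 CPM (-0.88 ± 0.0967). No CSS library of these 4 genes reached an FBS library.

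In Rv1-Luc few of the 40 differed between CSS and FBS. Under vehicle edgeR called 0 of 40 (15 at unadjusted p under 0.05 and 0 called by DESeq2, against 1.49% of all genes called), with 8 lower at FDR under 0.05 (against 6.67%), led by ERO1B (-0.32) and ERO1A (-0.28). HSPA5 stood at 1371, 1293 and 1564 CPM in FBS and 1320, 1231 and 1279 CPM in CSS, overlapping, with a log2 change of -0.14. Under SNX631 1 of 40 was called (lower, against 0.92% of all genes called lower), ERO1B, which went from 21.4, 19.8 and 17.7 to 13.1, 11.2 and 11.8 CPM (-0.71 ± 0.0931, edgeR FDR 5.6e-08). ERN1 in Rv1-Luc had a log2 change of 0.14 and ATF6 of 0.01 under vehicle, and neither passed FDR 0.05.

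The test of the difference between lines called 11 of 40 higher in Rv1-Luc (against 4.61% of all genes) and 3 lower (against 4.04%). SDF2L1 (log2 difference 1.50 ± 0.131), PDIA4 (1.38 ± 0.0695), MANF (1.19 ± 0.0893), CALR (1.16 ± 0.0620) and DERL3 (1.16 ± 0.108) were the largest of the 11, which also held HSPA5, HSP90B1, PDIA6, CRELD2, DNAJC3 and PPIB. The 3 lower were ERN1 (-1.64 ± 0.121), ATF6 (-1.03 ± 0.0631) and SEL1L (-0.59 ± 0.0872). At FDR under 0.05, 7 of 8 translocation genes were higher, with a median of 0.24. The share of all genes at that limit is not given, so this count has no background beside it.

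**Figure D4:**
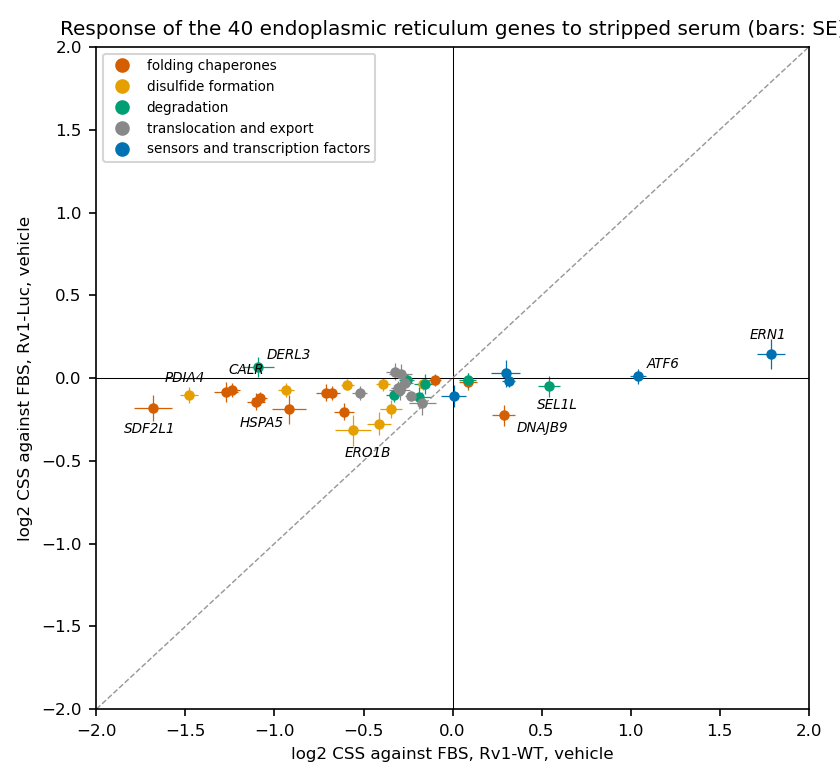
Fitted log2 change from FBS to CSS under vehicle for each of the 40 genes, Rv1-WT on the horizontal axis and Rv1-Luc on the vertical axis, with standard errors, coloured by role; the dashed line marks equal change. Rv1-WT spreads from -1.68 (SDF2L1) to 1.79 (ERN1), whereas all Rv1-Luc values lie between -0.32 and 0.14.

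The lines also differed before any treatment. Rv1-Luc against Rv1-WT in FBS under vehicle called 6 of 40 higher (against 8.63% of all genes) and 2 lower (against 9.16%). The 6 were DERL3 (log2 1.65 ± 0.0706, from 33.0, 30.9 and 29.2 to 93.5, 95.3 and 103 CPM), CRELD2 (0.73 ± 0.0898), SDF2L1 (0.72 ± 0.0837), PDIA4 (0.68 ± 0.0484), HSPA5 (0.61 ± 0.0501) and HSP90B1 (0.59 ± 0.0406), and the 2 were ERN1 (-0.81 ± 0.0913) and ERO1A (-0.72 ± 0.0676). Without replicate 3 of Rv1-Luc under vehicle, the differences of HSPA5 and HSP90B1 were 0.53 and 0.52, short of the fold limit. The plasma and B cell markers, given above, were also higher in Rv1-Luc. Their part in the level of DERL3 and the other genes was not tested.

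The active kinase lines stood below Rv1-WT under vehicle, in comparisons added with the data in view. dKO-8 had 14 of 40 called lower (against 14.4% of all genes called lower) and a median of -0.43, against 0.00 over all genes. They were 9 chaperones, with MANF (log2 -1.45 ± 0.0663) and HSPA5 (-1.21 ± 0.0512) the lowest, then SDF2L1, CRELD2, DNAJC3, HSP90B1, DNAJB11, PPIB and HYOU1, and besides PDIA4 (-1.31 ± 0.0501), PDIA3, SEL1L (-0.85 ± 0.0645), SEC11C (-0.72 ± 0.0616) and SPCS3 (-0.64 ± 0.0427). dKO-19 had 12 lower (against 14.5%) and 1 higher (against 7.54%), with a median of -0.37. CREB3L2 (-1.16 ± 0.0884), PDIA4 (-1.08 ± 0.0497), SEL1L (-1.02 ± 0.0651), DNAJC3, MANF and ERO1B (-0.98 ± 0.103) led the 12, HSPA5 (-0.79 ± 0.0506) and HSP90B1 (-0.64 ± 0.0407) were among them, and the higher gene was ATF6 (0.87 ± 0.0439).

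Across the 16 groups, the ratio of the highest to the lowest group mean differed widely between genes. ERN1 (7.06-fold between its highest and lowest group), DERL3 (7.02-fold), SDF2L1 (5.30-fold), PDIA4 (4.47-fold), MANF (3.99-fold) and HSPA5 (3.86-fold) varied most. EIF2AK3 (1.30-fold), SPCS2 (1.30-fold), OSTC (1.32-fold), SYVN1 (1.32-fold), SEC61B (1.42-fold) and SEC61A1 (1.44-fold) varied least. Rv1-Luc in FBS under vehicle was the highest group for 15 of the 40, HSPA5 and HSP90B1 included.

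Other genes of the pathway, in lists by role that were also drawn up with earlier results known, are given beside these counts. Of 71 such genes, SNX631 in Rv1-WT in FBS called 1 higher, CREB3L1 (a sensor of the CREB3 family, log2 0.77), and none lower (6 higher and 5 lower at FDR under 0.05), with a median of -0.01. In Rv1-Luc 2 of 71 were called higher in FBS, CREB3L1 (0.85) and TUSC3, a subunit of glycan transfer (0.85), and in CSS 1 higher (TUSC3, 0.72) and 1 lower, the isomerase FKBP2 (-0.63). The wider count was 6 higher and 20 lower in FBS, and 5 higher and 25 lower in CSS. CSS in Rv1-WT under vehicle called 1 of 71 higher, the cochaperone DNAJC1 (0.63), and 4 lower, the channel subunit SEC61G (-0.81), FKBP7 (-0.70), the segregase VCP (-0.63) and DAD1 of glycan transfer (-0.60), with 12 higher and 39 lower at FDR under 0.05 and a median of -0.20. Of 17 cytosolic chaperones, CSS in Rv1-WT called 7 lower (median -0.51) and SNX631 in FBS called none (5 lower and 2 higher at FDR under 0.05, median -0.01).

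The ATF4 branch, fed by PERK and by amino acid shortage, was counted beside the 40 as a list of 13 genes outside them. Of its 13 genes CSS in Rv1-WT under vehicle called 12 higher (median 1.14). SNX631 called 2 lower in Rv1-WT in FBS, 5 in Rv1-WT in CSS, and 4 and 9 in Rv1-Luc in FBS and CSS. In the active kinase lines it called 10 lower in dKO-8 (median -0.83) and 9 in dKO-19 (median -0.81). Of the kinase-dead lines, dKO-8M had none called (0 at FDR under 0.05, median -0.16). In dKO-19M 2 were called lower, and 6 were lower at FDR under 0.05 (median -0.24). All 13 genes had a fitted change below 0 in both kinase-dead lines. DDIT3 (CHOP, a factor of cell death under stress) went from 57.0, 60.1 and 58.1 to 21.5, 21.6 and 20.6 CPM in dKO-8 (log2 -1.46 ± 0.0584, edgeR FDR 1.0e-27), where HSPA5 was not called. In Rv1-WT in FBS it went from 68.4, 67.8 and 68.8 to 43.8, 40.6 and 38.7 CPM (-0.74 ± 0.0572), and CSS raised it to 216, 204 and 213 CPM (1.63 ± 0.0509). In dKO-8M DDIT3 went from 25.3, 25.0 and 26.8 to 21.5, 23.2 and 22.2 CPM with SNX631. In dKO-19M it went from 39.6, 34.1 and 35.2 to 25.3, 22.3 and 23.6 CPM. The groups did not overlap in either kinase-dead line. Counts of DDIT3 were fractional in 58.3% of libraries.

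ATF4 itself changed less. In dKO-8 it went from 869, 841 and 817 to 567, 558 and 578 CPM (log2 -0.57 ± 0.0521, short of the fold limit), and it was called in dKO-19 (-0.59 ± 0.0523) and in Rv1-Luc in CSS (-0.62 ± 0.0526). TRIB3, a pseudokinase induced by ATF4, was lowered by SNX631 in dKO-8 (-0.70 ± 0.0716) and raised by CSS in Rv1-WT (0.71 ± 0.0720). In Rv1-WT in FBS it stood at 307, 299 and 323 against 321, 292 and 318 CPM, overlapping. With SNX631 in dKO-8M, TRIB3 went from 272, 269 and 274 to 232, 222.5 and 217 CPM. In dKO-19M it went from 340, 299 and 292 to 257, 240 and 245 CPM, and the groups overlapped in neither kinase-dead line. PPP1R15A, which reverses the translation block of PERK, rose in CSS in Rv1-WT from 30.8, 31.2 and 31.2 to 86.5, 73.6 and 84.0 CPM (1.39 ± 0.0677) and was called in no SNX631 comparison. The largest fall of PPP1R15A with the inhibitor was -0.57 ± 0.0624, in Rv1-WT in CSS.

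**Figure D5:**
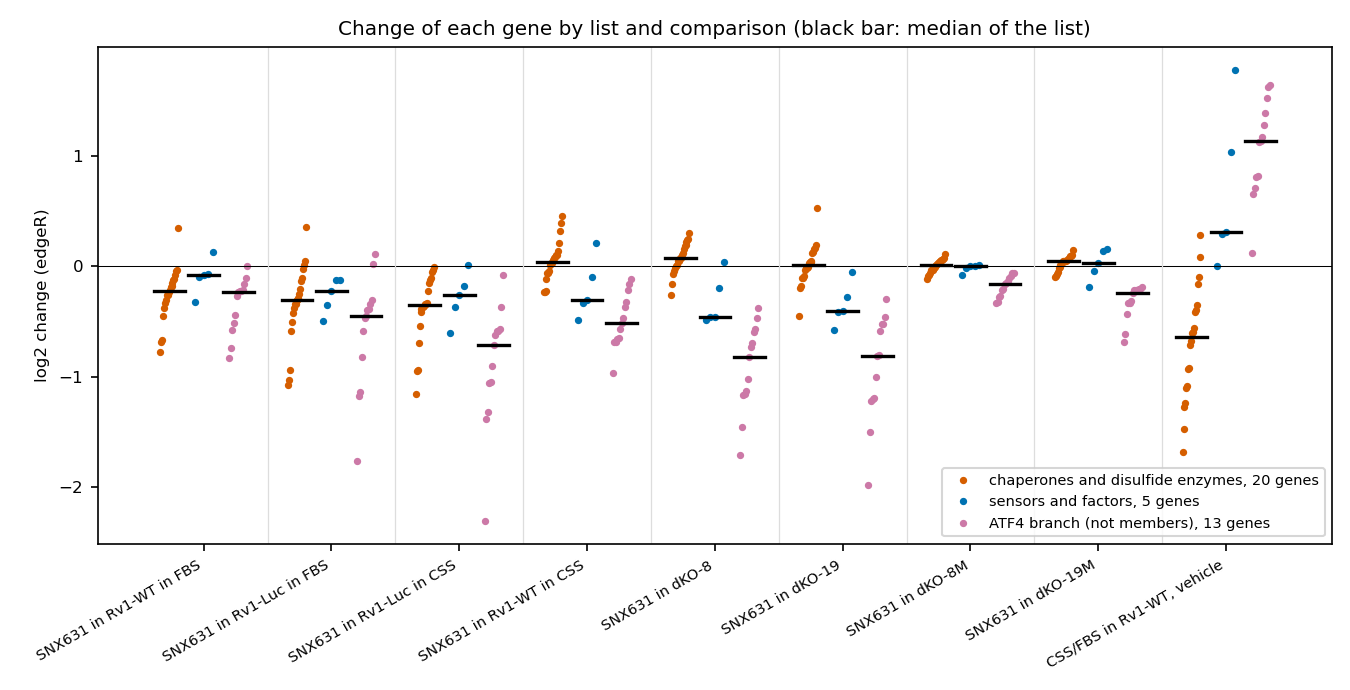
Fitted log2 change of each gene (points) in the 8 SNX631 comparisons and in CSS against FBS in Rv1-WT under vehicle, for the 20 chaperones and disulfide genes, the 5 sensors and factors and the 13 genes of the ATF4 branch, which are not among the 40; black bars are medians. In dKO-8 and dKO-19 the ATF4 branch has medians of -0.83 and -0.81 and the sensors of -0.45 and -0.41, and with CSS the ATF4 branch has a median of 1.14.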

How the data were processed

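Total RNA of 48 cell line cultures was sequenced with a directional library kit. The authors trimmed reads with cutadapt 2.8, aligned them with STAR 2.7.2b and counted them per gene with featureCounts of Subread 2.0.3, and the submitters' processing notes name the builds GRCh38.p13 and GRCm39. The counting options, the strand setting and the annotation release are not given in the sources used here. The deposited values are estimated counts per gene, of which 81.65% of nonzero values were whole and the rest fractions from reads shared between genes, so overlapping or near-identical genes can exchange reads.

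Values were rounded to whole counts, the 2 transgene entries were set aside, and genes were kept by filterByExpr with a minimum count of 10 and a minimum total of 15. Libraries were scaled by TMM (factors 0.911 to 1.07) and fitted in 1 model over 16 groups with edgeR 4.0.16 (limma 3.58.1, R 4.3.3), with the robust quasi-likelihood F-test, 32 residual degrees of freedom and Benjamini-Hochberg adjustment over 20009 genes. There were 17 comparisons of 3 against 3 libraries and 10 differences between effects, and 5 of these 27 were added with the data in view. The script was tested on simulated data. DESeq2 1.42.0, other scalings, no filter, a replicate block and leaving out each library were tried as alternatives.

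The 40 genes and the other lists were chosen with earlier results of these data known. All 40 are named with their role. Values in every library are given for genes called with SNX631 or CSS, at most 3 for each role and comparison in order of FDR, and always for XBP1, ATF6, ERN1 and EIF2AK3. Other lists are given by counts and medians with at most 4 named genes, and ATF4, DDIT3, TRIB3 and PPP1R15A always. Depth was 13.2 to 31.5 M counts for each library, and no interval is given since the spread over libraries sets the precision.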

Additional observations from a re-analysis of the deposited data

Results flagged for a closer look

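These results are differences between 2 effects that passed edgeR's quasi-likelihood test (FDR under 0.01 and fold over 1.5), given as log2 differences. Causes were not tested.

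The SNX631 effect in CSS minus that in FBS in Rv1-WT was 0.7725 for HSP90B1, 0.6544 for CALR, 0.6475 for CRELD2, 0.8297 for PDIA4 and 0.7427 for DERL3.

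The CSS effect under vehicle in Rv1-Luc minus that in Rv1-WT was 0.9612 for HSPA5, 0.9609 for HSP90B1, 1.1632 for CALR, 0.624 for DNAJC3, 1.502 for SDF2L1, 1.1882 for MANF, 0.7293 for CRELD2 and 0.5869 for PPIB among the chaperones. It was 1.3771 for PDIA4 and 0.8606 for PDIA6 among the isomerases, -0.594 for SEL1L and 1.1599 for DERL3 in degradation, and -1.032 for ATF6 and -1.6423 for ERN1 among the sensors.

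The SNX631 effect in dKO-19 minus that in dKO-19M was -0.6111 for ERN1.

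The SNX631 effect in dKO-8 minus that in Rv1-WT in FBS was 0.897 for HSPA5, 0.8276 for HSP90B1, 0.7509 for MANF, 0.869 for PDIA4 and -0.6184 for XBP1. For dKO-19 it was 0.8177 for HSPA5, 0.8009 for HSP90B1, 0.6075 for MANF and 0.7392 for PDIA4.

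The SNX631 effect in CSS in Rv1-Luc minus that in Rv1-WT was -0.7156 for HSPA5, -1.0428 for HSP90B1, -0.69 for CALR, -0.7352 for SDF2L1, -0.7716 for MANF, -0.6071 for CRELD2, -1.2986 for PDIA4 and -1.0424 for DERL3.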

How the results depend on the processing

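Of 115 calls of the 40 genes over all comparisons, 100 were kept under every alternative run, and of 1602 alternative values 47 lost the call and 0 changed sign. The calls lost most often were PPIB (9 alternatives) and SEL1L (6) in the difference between lines in the CSS effect, ATF6 in dKO-8M against dKO-8 (6), CRELD2 in the difference between lines in the SNX631 effect in CSS (6) and between media in Rv1-WT (3, at FDR 0.011 to 0.019 with the fold still past its limit), and ERN1 in dKO-19 minus dKO-19M (5). The labels do not pair replicates by number, and in 17 comparisons checked, 0 had every same-numbered pair correlated over 0.1 (range -0.079 to 0.229). With the replicate block, Rv1-WT in FBS had 4 genes called with SNX631 (median -0.10795), and the calls among the 40 were the same in every comparison. Under DESeq2 MANF was added with SNX631 in Rv1-Luc in FBS (5 called).

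When libraries were scaled by their totals alone, the median of the 40 was 0.041 for SNX631 in dKO-8, 0.03595 in dKO-19 and -0.00855 in dKO-8M, and -0.253 and -0.23655 for CSS in Rv1-WT under vehicle and SNX631. It was -0.0075 for dKO-19M against dKO-19, 0.09885 for the SNX631 effect between media in Rv1-WT, 0.17455 for the CSS effect between lines, 0.0547 for dKO-8 minus dKO-8M, 0.05045 for dKO-19 minus dKO-19M, -0.0269 for dKO-19 minus dKO-8 and 0.1287 for dKO-19 minus Rv1-WT. Against Rv1-WT under vehicle it was -0.50605 for dKO-8 and -0.52185 for dKO-19, where the median of all genes shifted by -0.1527 and 19 of the 40 were called against 13. Those medians were -0.4424 and -0.3844 with RLE scaling, -0.3964 and -0.3492 without the filter, -0.442 and -0.3859 with only the libraries compared, and -0.44235 and -0.38435 with DESeq2.

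Leaving out 1 library at a time, the SNX631 median ranged from 0.0094 to 0.03765 in dKO-8 and from -0.0079 to 0.00295 in dKO-8M, and the CSS median in Rv1-WT under SNX631 from -0.2731 to -0.24925. It ranged from 0.00175 to 0.03335 for dKO-8M against dKO-8 and from -0.1078 (without replicate 1 of dKO-19M under vehicle) to -0.0527 for dKO-19M against dKO-19. The ranges were 0.0196 to 0.04155 for dKO-8 minus dKO-8M, -0.05275 (without the same library) to 0.0216 for dKO-19 minus dKO-19M, -0.07265 to -0.0485 for dKO-19 minus dKO-8, 0.1073 to 0.15235 for dKO-8 minus Rv1-WT and 0.05935 to 0.1 for dKO-19 minus Rv1-WT. Against Rv1-WT under vehicle they were -0.4388 to -0.4154 for dKO-8 and -0.38565 to -0.34795 for dKO-19. Apart from these scalings and omissions, the cause of a change was not tested.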

Other observations

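Cytosolic chaperones, which serve the cytosol and nucleus, are outside the 40 genes. With SNX631 in dKO-8, 11 of 17 were higher (against 6.13% of all genes) and 1 lower (against 7.39%) at FDR under 0.05 (median log2 0.15, edgeR), with 0 called. In dKO-8M 0 of the 17 passed FDR 0.05 (median 0.03). Under SNX631, CSS in Rv1-WT called 8 of the 17 lower, against 2.97% of all genes called lower. At FDR under 0.05, 17 were lower (median -0.45), and the share of all genes is not given for that count.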
